A study of Mus musculus with 9 samples.

Results

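The thrombospondins Thbs1, Thbs2, Thbs3 and Thbs4 and the thrombospondin receptors Cd36 and Cd47 were followed in the mouse ovary across the days on which the first follicular antra appear. They are 6 of the 52025 genes in the tables, chosen by symbol with earlier results of these libraries known, and all 6 had a mean above the expression threshold (an FPKM of 1) on every day. FPKM are mapped fragments scaled by exon length and library depth, so levels of different genes can be compared on this scale. Untreated juvenile Kunming mice were used at postnatal day (PD) 14, PD15 and PD16, and RNA of whole ovaries was sequenced in 3 libraries per day. The ovaries are described as biologically independent. The comparison of the days asks which transcripts change while the antrum first forms (iFFA). A library held 20.4 to 28.7 M mapped fragments (median 24.2 M), as recovered from the tables. Although 1 label names ovary as the tissue, another names granulosa cells as the source. All 11 granulosa cell markers examined exceeded an FPKM of 1 in every library, and so did all 12 oocyte, 8 theca and interstitial, 9 stromal and 10 endothelial markers, so these are values of mixed ovarian tissue.

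Thrombospondins are secreted, calcium-binding glycoproteins of the extracellular matrix. Thbs1 and Thbs2 form trimers whose type 1 repeats bind CD36 and restrain blood vessel growth, and Thbs1 can also release active TGF-beta from its latent complex. Thbs3 and Thbs4 form pentamers and lack those repeats. CD47 binds the C-terminal part of thrombospondins and dampens nitric oxide signalling, and CD36 also takes up fatty acids and oxidised lipoproteins. In the ovary, thrombospondins are best known from the growing follicle, whose granulosa cell layer has no vessels of its own, and from the corpus luteum.

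In GRCm38 (GENCODE M21), Thbs1 (ENSMUSG00000040152) lies on chromosome 2 at 118111876 to 118127133 on the plus strand, and Thbs2 (ENSMUSG00000023885) on chromosome 17 at 14665500 to 14694235 on the minus strand. Thbs3 (ENSMUSG00000028047) lies on chromosome 3 at 89215180 to 89226837 on the plus strand, and Thbs4 (ENSMUSG00000021702) on chromosome 13 at 92751590 to 92794818 on the minus strand. Cd36 (ENSMUSG00000002944) lies on chromosome 5 at 17781690 to 17888801 on the minus strand, and Cd47 (ENSMUSG00000055447) on chromosome 16 at 49800533 to 49915010 on the plus strand. RefSeq's promoter sequences (GRCm38.p6, 250 bases before to 50 bases after a gene's start) had an entry for 5 of the 6 members. Those of Cd36 and Thbs4, which showed the largest differences between days, and of Thbs2, whose libraries overlapped between all days, are shown 5′ to 3′ on the strand of the gene. Capitals mark the CCAAT box, the GC box GGGCGG and the TATA box TATAAA, each on either strand.

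Cd36, chr5:17835847-17836146, minus strand: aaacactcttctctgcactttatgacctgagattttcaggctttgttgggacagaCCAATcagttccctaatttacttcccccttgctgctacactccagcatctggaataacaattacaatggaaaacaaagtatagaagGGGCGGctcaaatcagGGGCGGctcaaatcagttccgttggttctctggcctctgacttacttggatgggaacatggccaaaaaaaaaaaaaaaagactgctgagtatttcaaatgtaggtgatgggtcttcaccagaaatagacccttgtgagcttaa

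Thbs4, chr13:92794769-92795068, minus strand: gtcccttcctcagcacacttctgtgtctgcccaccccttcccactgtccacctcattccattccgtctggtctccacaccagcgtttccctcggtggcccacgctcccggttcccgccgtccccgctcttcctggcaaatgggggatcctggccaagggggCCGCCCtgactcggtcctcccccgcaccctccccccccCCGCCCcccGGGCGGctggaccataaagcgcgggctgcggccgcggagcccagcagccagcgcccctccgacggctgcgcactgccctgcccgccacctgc

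Thbs2, chr17:14694213-14694512, minus strand: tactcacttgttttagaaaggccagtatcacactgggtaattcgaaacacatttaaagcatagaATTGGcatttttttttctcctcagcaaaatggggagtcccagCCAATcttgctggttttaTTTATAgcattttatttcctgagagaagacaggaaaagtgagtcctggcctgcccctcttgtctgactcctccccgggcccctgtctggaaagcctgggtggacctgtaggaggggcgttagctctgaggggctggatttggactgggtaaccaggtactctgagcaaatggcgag

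The Cd36 window held a CCAAT box at -195 and GC boxes at -109 and -93 from the start, with a GC content of 43.0%. The Thbs4 window had a GC content of 72.0% and held 3 GC boxes, at -42 on the printed strand and at -51 and -89 on the other strand. The Thbs2 window, with a GC content of 48.3%, held CCAAT boxes at -144 and, on the other strand, at -186, and a TATAAA on the other strand at -126. The median GC content of all 32851 windows was 52.7%. CCAAT occurred in 37.4% of them, GGGCGG in 35.7% and TATAAA in 13.6%. The letters of an AP-1 site (TGANTCA), of an NR5A1 site (CAAGGTCA) and of a CArG box were searched on both strands too, and occurred in 7.81%, 1.56% and 1.63% of all windows but in none of the members' windows. These matches describe the sequence and not binding. The window of Cd36 lies inside the longer gene model of GENCODE M21, and which start the transcripts used was not tested.

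Thbs1, the main anti-angiogenic thrombospondin, was the most abundant member in every library. Its FPKM was 179, 172 and 153 in PD14 replicates 1 to 3, 209.9, 208 and 199 at PD15, and 218, 225 and 255 at PD16. The 3 days did not overlap, each day lying above the one before. Over 3 libraries each, PD14 averaged 168 ± 13.6 (SD), PD15 206 ± 5.94 and PD16 233 ± 20.1. Among all genes ranked by FPKM within a library, Thbs1 stood at places 207 to 276 at PD14 and 121 to 178 at PD16. On the log2(FPKM + 1) scale, the difference was 0.29 (standard error 0.089) for PD15 against PD14, 0.47 for PD16 against PD14 and 0.17 for PD16 against PD15. With PD16 replicate 3 left out, the last value was 0.10, and the libraries still did not overlap. These values rest on 18908 to 39463 fragments per library, so the counting error of at most 0.727% was far below the spread between libraries. Exons of Thbs1 share 208 bases with Gm29233 on the opposite strand, which was listed at 0 in all libraries.

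**Figure D1:**
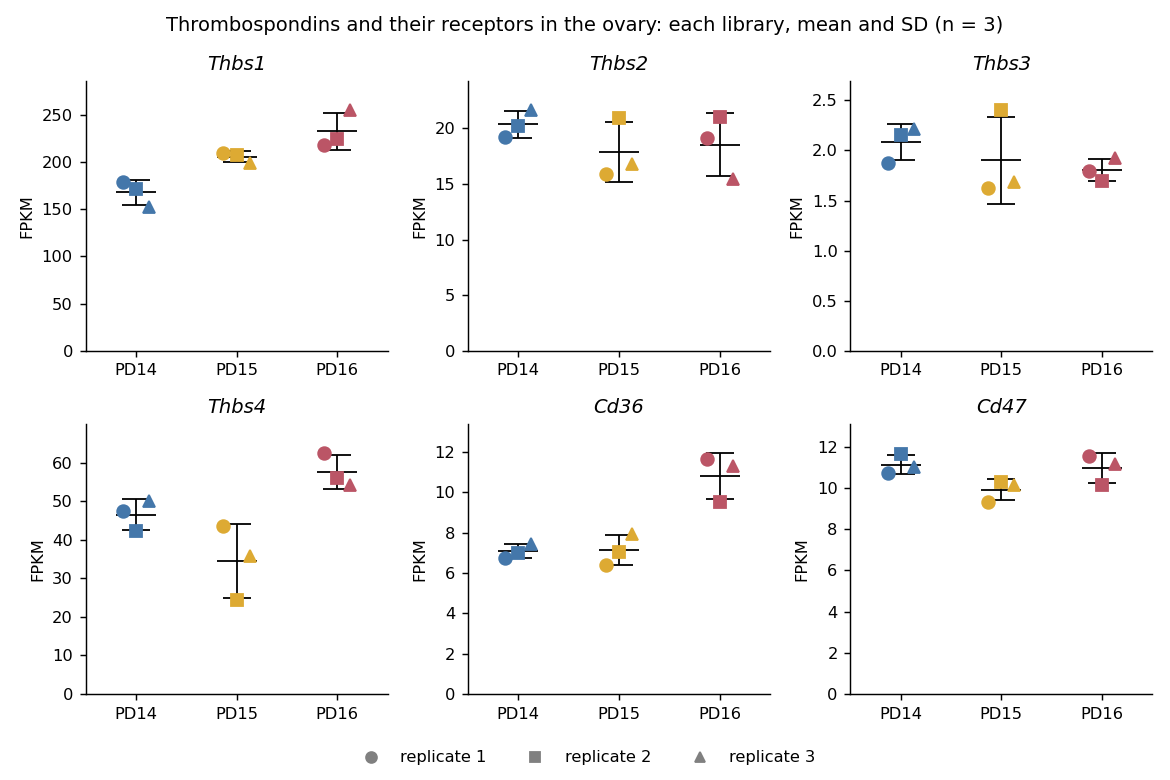
FPKM of the 4 thrombospondins and 2 receptors in each library (circle, square and triangle for replicates 1, 2 and 3), with the day on the horizontal axis and the mean and SD of 3 libraries as black marks. Thbs1 was higher on each later day without overlap, Thbs4 was highest at PD16, from 54.2 to 62.5, and Cd36 reached 9.51 to 11.6 only at PD16, whereas the libraries of Thbs2 and Thbs3 overlapped between all days.

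Thbs2, the closest relative of Thbs1 and likewise an inhibitor of vessel growth, was about an order of magnitude lower. It measured 19.3, 20.2 and 21.7 FPKM at PD14, 15.9, 20.9 and 16.8 at PD15, and 19.2, 21.04 and 15.4 at PD16. The libraries overlapped between all days, and the spread was wider at PD15 and PD16 (coefficients of variation of 15.1% and 15.4%) than at PD14 (5.92%), over 3 libraries each. The log2 differences were -0.19 (standard error 0.12) for PD15, -0.14 for PD16 against PD14 and 0.05 for PD16 against PD15. The difference for PD15 lay at -0.11 without PD15 replicate 1 and at -0.30 without PD15 replicate 2, and that for PD16 against PD14 at -0.02 without PD16 replicate 3. Within a library, Thbs1 exceeded Thbs2 by a mean factor of 8.28 (SD 1.14) at PD14, 11.7 (SD 1.65) at PD15 and 12.9 (SD 3.21) at PD16, over 3 libraries each. Its libraries at PD15 and PD16 all lay above those of PD14, which reached 9.29, while the 2 later days overlapped.

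Thbs4, a pentameric thrombospondin known from tendon, muscle and the vessel wall, had the second-highest level of the members. Its FPKM was 47.5, 42.2 and 49.97 at PD14, 43.5, 24.3 and 35.7 at PD15, and 62.5, 56.0 and 54.2 at PD16. All PD16 libraries lay above all libraries of the other days, and the PD15 libraries reached into the range of PD14 only through replicate 1. The mean was 46.5 ± 3.99 at PD14, 34.5 ± 9.67 at PD15 and 57.6 ± 4.34 at PD16 (SD, n = 3). PD15 had the widest spread of any member on any day, with a coefficient of variation of 28.0%. On the log2(FPKM + 1) scale, Thbs4 differed by -0.46 (standard error 0.17) at PD15 against PD14, by 0.30 at PD16 against PD14 and by 0.76 at PD16 against PD15. Of the genes tested, 1.41% had a difference larger in size than this last value. PD15 replicate 2 had the lowest value, and without it the difference for PD15 against PD14 was -0.23 and that for PD16 against PD15 was 0.53. Between 1901 and 4895 fragments per library lay behind these values.

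Thbs3, the other pentameric member and known mainly from the skeleton, was the least abundant. It measured 1.88, 2.15 and 2.22 FPKM at PD14, 1.62, 2.40 and 1.68 at PD15, and 1.79, 1.70 and 1.92 at PD16. The days overlapped. The log2 differences were -0.10 (standard error 0.11) for PD15, -0.14 for PD16 against PD14 and -0.04 for PD16 against PD15. Without PD15 replicate 2, the highest of all libraries, the first of these was -0.22 and the last turned to 0.08. Without PD15 replicate 1, the first was -0.03. The values rest on only 186 to 276 fragments, and the counting error at the lowest count was 7.33%. Exons of Thbs3 share 318 bases with Mtx1 on the opposite strand, which measured 6.002 to 7.33 FPKM. The use of strand in counting is not given in the sources used here, so part of the Thbs3 reads cannot be told apart from Mtx1.

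Cd36, the receptor for the type 1 repeats of Thbs1 and Thbs2 and a fatty acid transporter, was higher at PD16 only. It measured 6.75, 6.999 and 7.44 FPKM at PD14, 6.41, 7.05 and 7.91 at PD15, and 11.6, 9.51 and 11.3 at PD16. The PD14 and PD15 libraries overlapped, and all PD16 libraries lay above both. Over 3 libraries each, Cd36 averaged 7.06 ± 0.348 (SD) at PD14, 7.12 ± 0.753 at PD15 and 10.8 ± 1.13 at PD16. The log2 difference was 0.01 (standard error 0.089) for PD15 against PD14, 0.55 for PD16 against PD14 and 0.54 for PD16 against PD15. Leaving out each library in turn gave 0.50 to 0.63 for PD16 against PD14 and 0.47 to 0.62 for PD16 against PD15. A library held 544 to 1030 fragments of Cd36, with a counting error of 4.29% at the lowest count.

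Cd47, the receptor for the C-terminal part of thrombospondins and the ligand of the phagocyte receptor SIRPA, had the smallest spread within days of the members, with a residual SD of 0.07 on the log2(FPKM + 1) scale. Its FPKM was 10.7, 11.7 and 11.0 at PD14, 9.34, 10.3 and 10.2 at PD15, and 11.6, 10.2 and 11.2 at PD16. The PD15 libraries all lay below the PD14 libraries, and PD16 overlapped with both. The log2 differences were small, at -0.15 (standard error 0.065) for PD15 against PD14, -0.02 for PD16 against PD14 and 0.13 for PD16 against PD15. Between 1185 and 1542 fragments per library lay behind them.

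In the comparison of PD15 with PD14, Thbs1 was higher and Cd47 lower without overlap of the libraries, and the other 4 members overlapped. Over all genes tested, the libraries did not overlap for 10.4% in the higher and 10.2% in the lower direction. In the comparison of PD16 with PD14, Thbs1, Thbs4 and Cd36 were higher without overlap, where 15.0% of all genes were, and 0 members were lower, where 13.5% of all genes were. In that of PD16 with PD15, the same 3 members were higher, where 9.85% of all genes were, and 0 members lower, where 9.73% were. Limma on log2(FPKM + 1) with Benjamini-Hochberg adjustment over 15495 genes called 0 of the 6 members at an adjusted p under 0.05 for PD15 against PD14, with 0.678% of all genes called. At an unadjusted p under 0.05, 3 members passed in that comparison (Thbs1, Thbs4 and Cd47), where 14.7% of all genes did. At the same threshold, Thbs1 and Cd36 passed for PD16 against PD14, where 22.8% of all genes did, and Thbs4 and Cd36 for PD16 against PD15, where 14.1% did. For PD16 against PD14, 2 members were called, Thbs1 and Cd36, with 4.25% of all genes called. Without a filter on mean FPKM neither was called, and with a replicate block Cd36 alone was. For PD16 against PD15, only Cd36 was called, with 0.729% of all genes called. That call was lost without a filter, without an intensity trend and with a replicate block. The members were chosen with these contrasts known, so the counts describe the members and are not a test of them. In the 9 fits that each left out 1 library, the call of Thbs1 for PD16 against PD14 was kept only where the library left out was of PD15. That of Cd36 was lost there without PD14 replicate 1, PD14 replicate 3 or PD16 replicate 1. For PD16 against PD15, the call of Cd36 was lost without PD14 replicate 3, PD15 replicates 1 or 2, or PD16 replicates 1 or 3. These comparisons share libraries of the same days and are not independent of each other.

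**Figure D2:**
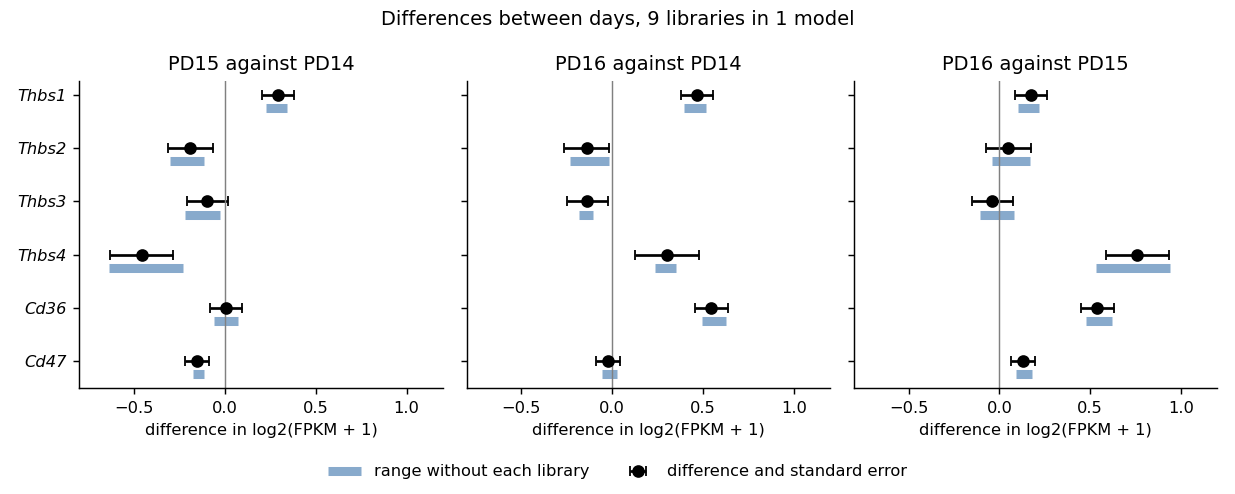
Difference in log2(FPKM + 1) between days for each member, with the standard error of the model over 9 libraries (black) and the range of the difference with each library left out in turn (blue). Thbs4 had the largest difference, 0.76 for PD16 against PD15, and the widest range of values, while Cd47 stayed within -0.18 to 0.18 in all 3 comparisons.

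The order of the day means was the same on each day, from Thbs1 through Thbs4, Thbs2, Cd47 and Cd36 to Thbs3. Neighbours in this order did not overlap in FPKM on a day, with the exception of Cd47 and Cd36 at PD16, where the means were 11.0 and 10.8. In PD16 replicates 1 and 3, Cd36 lay slightly above Cd47. At PD14, Cd47 exceeded Cd36 by a factor of 1.58, and at PD15 by a factor of 1.39. Thbs1 exceeded Thbs4, the next thrombospondin, by a factor of 3.61 at PD14, 5.96 at PD15 and 4.04 at PD16. Within a library, the ratio of Thbs1 to Cd47 was 15.1 ± 1.44 at PD14, 20.8 ± 1.53 at PD15 and 21.3 ± 2.13 at PD16 (SD, n = 3), and PD14 did not overlap with the later days. The ratio of Thbs1 to Cd36 was 23.9 ± 3.05, 29.1 ± 3.82 and 21.7 ± 2.59 on the same days, and PD15 overlapped with PD14 but not with PD16.

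The summed FPKM of the 4 thrombospondins was 237 ± 10.5 at PD14, 259.9 ± 9.69 at PD15 and 311 ± 14.3 at PD16 (SD, n = 3), and the days did not overlap. Thbs1 made up 70.8% ± 2.94 of this sum at PD14, 79.2% ± 2.004 at PD15 and 74.8% ± 2.98 at PD16. The PD15 libraries, at 77.5% to 81.4%, lay above all PD14 libraries and overlapped with PD16. Thbs4 contributed 19.7% ± 2.16, 13.2% ± 3.37 and 18.6% ± 2.08 on the 3 days, and its PD15 libraries lay below those of both other days. Thbs2 contributed 8.63% ± 0.892 at PD14, 6.89% ± 1.19 at PD15 and 6.01% ± 1.15 at PD16, and Thbs3 contributed under 1% in every library. Such shares are tied to each other, since a higher level of Thbs1 lowers the share of the others. No test was run on them.

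**Figure D3:**
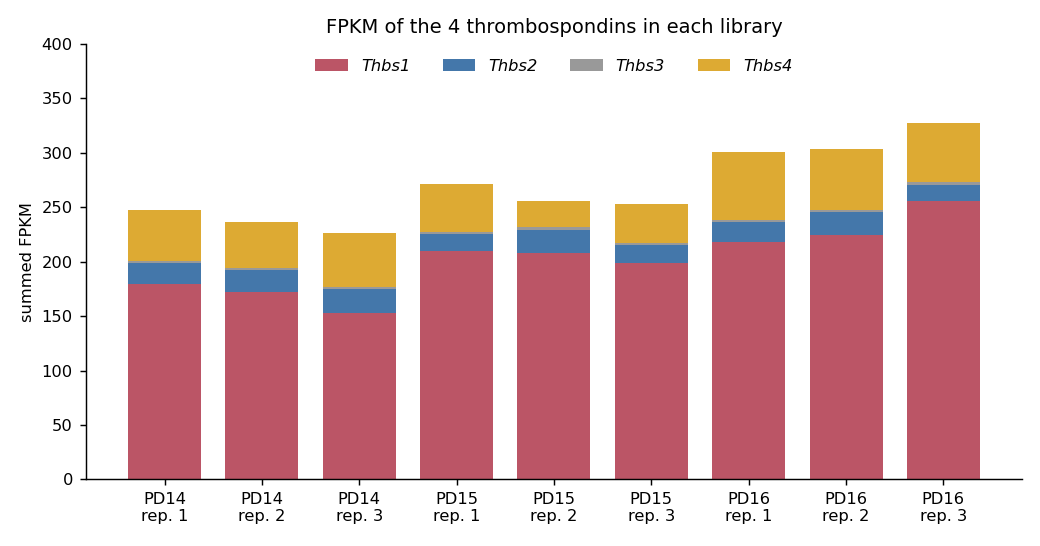
Stacked bars of the FPKM of Thbs1, Thbs2, Thbs3 and Thbs4 in each of the 9 libraries, with the summed FPKM on the vertical axis. The sum was 227 to 248 at PD14, 253 to 271 at PD15 and 301 to 327 at PD16, and the Thbs4 segment was smallest in PD15 replicate 2.

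The members did not follow a common profile over the 9 libraries. On the log2(FPKM + 1) scale, Pearson's r was highest between Thbs1 and Cd36, at 0.65, followed by 0.60 for Thbs4 and Cd36 and 0.58 for Thbs2 and Thbs3, and lowest at -0.56 for Thbs1 and Thbs2. These are descriptions over libraries that share the 3 days, the tissue and the depth range. Among 9378 other genes with a mean FPKM of at least 5, the profile of Thbs1 was closest to those of Eif2ak4, a kinase that senses amino acid shortage (r = 0.98), the RNA-binding protein Sfpq (0.96) and the cytoskeletal linker Dst (0.96). It was most opposite to that of H19, an imprinted noncoding RNA (-0.97), which measured 23.9 FPKM at PD14 and 14.7 at PD16. Cd36 was closest to Bmpr2, a receptor for bone morphogenetic proteins (r = 0.98), Plod2, a lysyl hydroxylase of collagen (0.98), and the mitochondrial carrier Slc25a24 (0.98). Bmpr2 measured 19.1, 19.7 and 28.4 FPKM and Plod2 54.5, 58.1 and 80.1 FPKM on the 3 days. The profile most opposite to Cd36 was that of Dpf3, a subunit of a chromatin remodelling complex (-0.98).

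Cd47 was closest to Grem1, a secreted antagonist of bone morphogenetic proteins (r = 0.97), and then to Ppfibp1 (0.93) and Napg (0.92), and most opposite to the tubulin Tubb6 (-0.95). Grem1 measured 9.83 FPKM at PD14, 4.08 at PD15 and 8.32 at PD16. Thbs4 was closest to Kctd10 (0.91) and to the processed pseudogenes Gm9625 (0.91) and Gm8494 (0.91), whose values are uncertain because pseudogenes share reads with their parent genes, and most opposite to Rgl1 (-0.94). Thbs2 was closest to Mxra7 (0.93), Nicn1 (0.93) and the tetraspanin Cd82 (0.92), and most opposite to Zfp317 (-0.93). Thbs3 was closest to the histone deacetylase Hdac1 (0.91), Cyp2d22 (0.90) and Stx1a (0.89), and most opposite to Hacd1 (-0.93). These values of r are the extremes of many genes over 9 libraries, and no p is given.

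Around the members, 7 lists held 147 genes, of which 123 were tested. They cover other receptors and partners, latent TGF-beta and its signalling, nitric oxide signalling below CD47, lipid handling and kinases beside CD36, vessel growth, enzymes that modify thrombospondin repeats, and other proteins with such repeats. Comp, the cartilage member of the family, was counted among the last. Limma with Benjamini-Hochberg adjustment called 3 of the 123 genes for PD15 against PD14 (2.44%, all lower), 8 for PD16 against PD14 (6.50%, 4 higher and 4 lower) and 1 for PD16 against PD15 (0.813%, higher). Over all genes tested, the shares called were 0.678%, 4.25% and 0.729%. The median log2 difference of the listed genes was -0.06 for PD15 and -0.000657 for PD16 against PD14, and 0.04 for PD16 against PD15. Over all genes tested it was 0.01 in each comparison. For PD15 against PD14, the median of a single list was lowest at -0.14 for nitric oxide signalling and -0.12 for other proteins with thrombospondin repeats, and highest at 0.05 for the modifying enzymes. For PD16 against PD14, the list medians ran from -0.09 for the other repeat proteins to 0.06 for the modifying enzymes. For PD16 against PD15, they ran from -0.01 for the other repeat proteins to 0.10 for nitric oxide signalling. In that list, 10 of the 11 genes tested were higher at PD16 than at PD15. Of the same 11, 9 were lower at PD15 than at PD14, a comparison that shares the PD15 libraries, and 6 were higher at PD16 than at PD14. The list of nitric oxide signalling, with 11 genes tested, and that of modifying enzymes, with 8, held no gene that limma called in any comparison. At an unadjusted p under 0.05, the former had 2, 1 and 2 genes and the latter 1, 3 and 1 genes in the 3 comparisons, where 14.7%, 22.8% and 14.1% of all genes passed.

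Among the 21 other receptors and partners, 1 gene was called, for PD16 against PD14 (4.76%, beside 4.25% of all genes). Itgav, the integrin alpha V chain that binds the RGD motif of thrombospondins, rose from 30.3 ± 3.28 FPKM at PD14 (SD, n = 3) to 40.5 ± 3.10 at PD16, with 34.3 ± 1.54 at PD15. Its log2 difference for PD16 against PD14 was 0.41 (limma adjusted p = 0.0355). Over 9 fits that each left out 1 library, the adjusted p was 0.0354 to 0.118, and the call was lost without replicates 1 or 3 of PD14, or replicates 1 or 2 of PD15 or PD16. Calr and Itgb1, the list's most abundant genes and chosen after their values were seen, measured 329 to 435 and 164 to 195 FPKM.

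Of the 20 tested genes around TGF-beta, 2 were called for PD15 against PD14 (10%, beside 0.678% of all genes), 1 for PD16 against PD14 (5%, beside 4.25%) and 0 for PD16 against PD15. All 3 calls were lower, although the difference was above 0 for 13 of the 20 genes in PD16 against PD14 and for 15 in PD16 against PD15. Lrrc32, which anchors latent TGF-beta at the cell surface, fell from 5.66 ± 0.304 to 4.01 ± 0.434 FPKM at PD15 (log2 difference -0.41, limma adjusted p = 0.0458), and measured 4.86 ± 0.122 at PD16. Acvrl1, a type I receptor of the family found on endothelium, fell from 6.11 ± 0.267 to 4.64 ± 0.183 FPKM at PD15 (log2 difference -0.34, limma adjusted p = 0.0487), and measured 5.57 ± 0.300 at PD16. Neither call held in any of the 9 fits with a library left out, with adjusted p of 0.0570 to 0.160 for Lrrc32 and 0.0600 to 0.166 for Acvrl1. Smad3, which carries the signal to the nucleus, fell from 49.3 ± 3.44 FPKM at PD14 to 36.7 ± 2.81 at PD16 (log2 difference -0.42, limma adjusted p = 0.0316). Its call was lost without replicates 1 or 3 of PD14, PD15 replicate 1, or any PD16 library, with adjusted p of 0.0312 to 0.105 over those fits.

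Of the 16 tested genes beside CD36, only Pparg was called, for PD16 against PD14 (6.25%, beside 4.25% of all genes). This nuclear receptor of fatty acid metabolism is known to activate transcription of Cd36. It measured 6.61, 7.99 and 7.93 FPKM at PD14, 11.2, 8.77 and 9.22 at PD15, and 17.3, 11.4 and 13.3 at PD16. The days PD14 and PD16 did not overlap, and Pparg rose by 0.80 on the log2 scale (standard error 0.14, limma adjusted p = 0.0234). The call was lost without PD14 replicate 1, PD14 replicate 3 or PD16 replicate 1, with adjusted p of 0.0197 to 0.0711 over the 9 fits. It was also lost without a filter on mean FPKM (limma adjusted p = 0.0693). Of the 18 tested genes of vessel growth, only Tie1, an endothelial receptor kinase, was called, for PD16 against PD14 (5.56%, beside 4.25% of all genes). It fell from 9.87 ± 0.647 FPKM at PD14 to 8.12 ± 0.166 at PD16 (log2 difference -0.25, limma adjusted p = 0.0458), and the call held in none of the 9 fits, with adjusted p of 0.0555 to 0.136.

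Among 29 tested genes of other proteins with thrombospondin repeats and Comp, 5 were called in at least 1 comparison, with 1 called for PD15 against PD14, 4 for PD16 against PD14 and 1 for PD16 against PD15, where 0.678%, 4.25% and 0.729% of all genes were. Rspo1, a secreted activator of Wnt signalling that is needed for ovary development, measured 6.38, 6.96 and 7.37 FPKM at PD14, 4.07, 4.66 and 4.08 at PD15, and 3.83, 3.98 and 4.24 at PD16. It fell by 0.58 on the log2 scale at PD15 (limma adjusted p = 0.0158) and by 0.65 at PD16 (limma adjusted p = 0.00583). The PD16 call held in all 9 fits with a library left out (adjusted p of 0.0108 to 0.0305), and the PD15 call was lost without PD14 replicate 2, PD14 replicate 3 or PD15 replicate 1 (adjusted p of 0.0264 to 0.0893). Comp, a pentamer like Thbs3 and Thbs4, fell from 1.28 ± 0.104 FPKM at PD14 to 0.382 ± 0.142 at PD16 (log2 difference -0.73, limma adjusted p = 0.0248). For the same comparison, the log2 difference of Thbs3 was -0.14 and that of Thbs4 was 0.30, and limma called neither. The call of Comp was lost without replicates 1 or 3 of PD14 or replicates 1 or 2 of PD16, with adjusted p of 0.0281 to 0.0906 over the 9 fits. At this low level the size depended on the pseudocount, and with 0.1 in place of 1 the log2 difference was -1.57.

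The other 3 genes of that list are secreted matrix proteins. Adamtsl2, which binds fibrillin, rose from 3.68 ± 0.473 to 6.15 ± 0.734 FPKM at PD16 (log2 difference 0.61, limma adjusted p = 0.0236), and the call was lost without PD14 replicate 3 or replicates 1 or 3 of PD16 (adjusted p of 0.0242 to 0.0825). Adamts2, a procollagen N-proteinase, rose from 32.9 ± 2.56 to 41.7 ± 0.741 FPKM at PD16 (log2 difference 0.33, limma adjusted p = 0.0294), and the call was lost without replicates 1 or 3 of PD14 or any PD16 library (adjusted p of 0.0276 to 0.101). Adamts5, a proteoglycan-cleaving protease, rose from 2.33 ± 0.572 FPKM at PD15 to 4.94 ± 0.986 at PD16 (log2 difference 0.84, limma adjusted p = 0.0439), and the call was kept only in the fits without PD15 replicate 2 or PD16 replicate 2 (adjusted p of 0.0384 to 0.138).

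**Figure D4:**
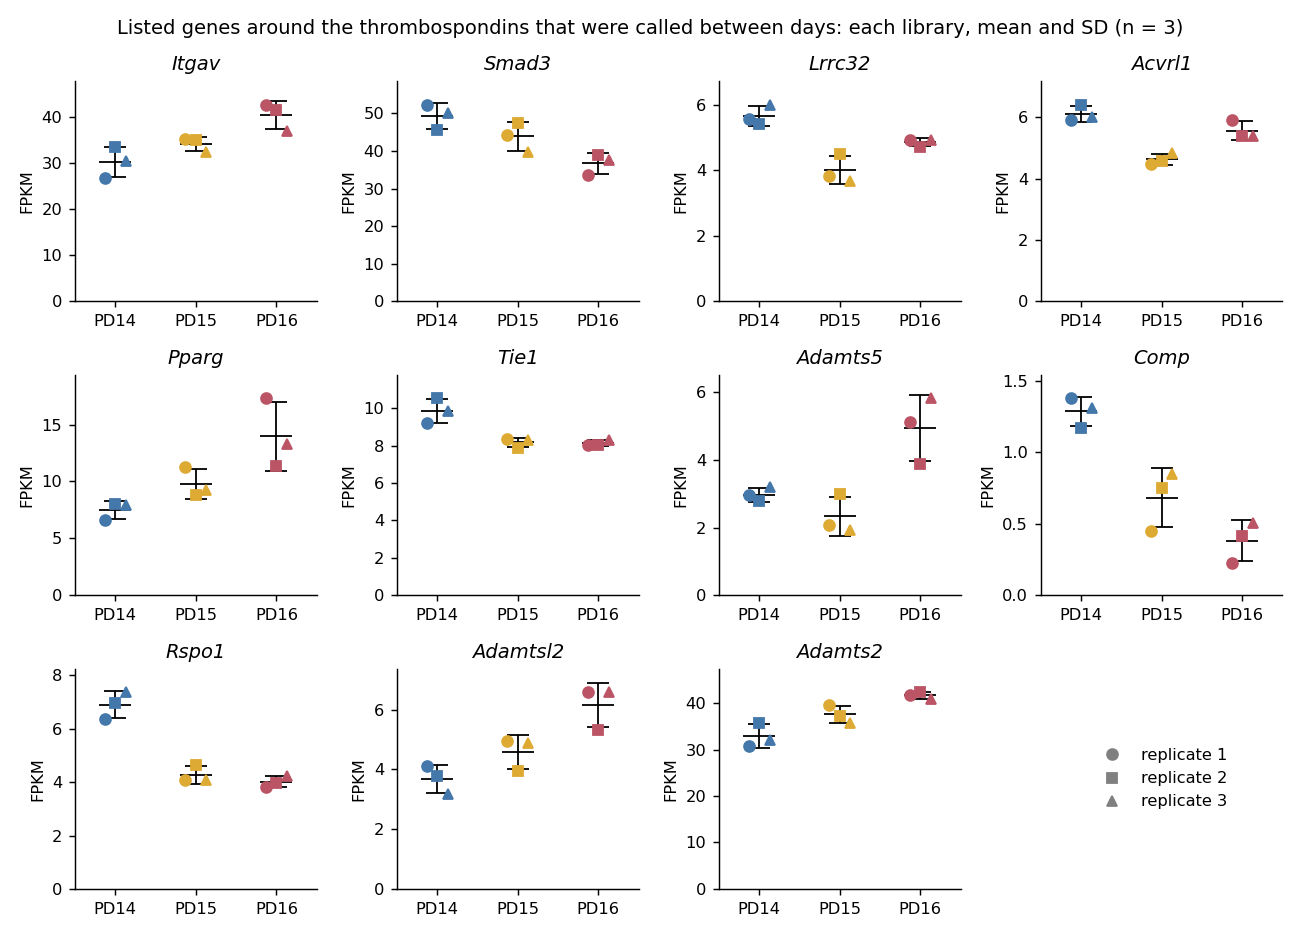
FPKM of the 11 listed genes that limma called in at least 1 comparison, in each library (circle, square and triangle for replicates 1, 2 and 3), with the day on the horizontal axis and the mean and SD of 3 libraries as black marks. Itgav, Pparg, Adamtsl2 and Adamts2 were higher at PD16 than at PD14, Smad3, Tie1, Comp and Rspo1 were lower, Lrrc32 and Acvrl1 were lower at PD15, and Adamts5 was higher at PD16 than at PD15.

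Markers of other cell types also differed between days, and in whole ovary RNA fewer cells of a type and less RNA per cell cannot be told apart. Cd36 is known from macrophages, capillary endothelium, adipocytes and platelets. The summed FPKM of 9 macrophage markers, of which 8 were tested, was 30.6 to 33.7 at PD14, 34.8 to 42.7 at PD15 and 37.0 to 46.6 at PD16, so both later days lay above PD14. Lyz2, the most abundant of these markers, rose from 8.91 ± 0.502 to 15.8 ± 3.70 FPKM at PD16 (limma adjusted p = 0.0286). Its PD16 libraries measured 19.6, 12.2 and 15.7, and whether its call held with a library left out was not examined. Without Lyz2, the other macrophage markers summed to 21.9 to 24.2 at PD14, 21.6 to 26.9 at PD15 and 24.9 to 27.0 at PD16. PD15 overlapped with both other days, and PD16 lay above PD14, whereas all Cd36 libraries of PD16 lay above both other days. The 10 endothelial markers summed to 112 to 128 at PD14, 101 to 109 at PD15 and 97.5 to 106 at PD16, and all 10 were lower at PD16 than at PD14, with Tie1 called. The 8 adipocyte markers summed to 7.19 to 8.85 at PD14 and 5.09 to 6.64 at PD16, and the only one tested, Plin1, was called lower at both later days. The other 7, without Plin1, summed to 0.805 to 1.14 at PD14, 1.25 to 1.97 at PD15 and 1.199 to 1.32 at PD16, so they lay higher on the later days. The 9 platelet markers, of which Pf4 alone exceeded an FPKM of 1 and Treml1 was listed at 0, summed to 5.39 to 9.00 at PD14 and 4.96 to 6.75 at PD16. Without Pf4, they summed to 1.72 to 2.32 at PD14 and 1.07 to 1.37 at PD16. The part of these cell types in the Cd36 values was not tested.

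For Thbs1, which platelets store and whose transcription responds quickly to growth factors in many cells, the sums of 17 immediate early genes overlapped between the days, at 84.6 to 87.6 at PD14, 78.1 to 85.2 at PD15 and 81.1 to 95.9 at PD16. Single genes of this list differed, and limma called Klf4 higher and Btg2 lower at PD16 than at PD14, Btg2 lower at PD15 than at PD14, and Fos higher at PD16 than at PD15. Fos measured 1.14 to 1.42 FPKM at PD14, 0.685 to 1.32 at PD15 and 1.99 to 2.75 at PD16, and 11 of the 14 genes tested were higher at PD16 than at PD15. Of these 14, 12 were lower at PD15 than at PD14. The called markers named beside the sums were chosen after their values were seen. Apart from Tie1, whether their calls held with a library left out was not examined. For Thbs4, the 9 mural and smooth muscle markers summed to 329 to 370 at PD14, 308 to 385 at PD15 and 349 to 450 at PD16, and the days overlapped. This sum is mostly Acta2. Of the 9 markers, 8 were higher at PD16 than at PD15, with a median log2 difference of 0.19, and limma called 0 there. In the same comparison, 7 of 8 macrophage and 7 of 9 stromal markers tested were higher, but 0 of 12 oocyte and 0 of 7 epithelial markers. Limma called Cnn1 higher and Rgs5 lower at PD16 than at PD14. Among 7 muscle and tendon markers, only Scx was tested, at 4.13 to 5.19 FPKM at PD14, 4.03 to 6.88 at PD15 and 2.39 to 6.01 at PD16, with log2 differences of 0.28 for PD15 against PD14 and -0.37 for PD16 against PD15 (standard error 0.26), and limma called neither. The granulosa cell markers, led by Inha and Amh, summed to 3039 to 3732 at PD14, 2872 to 3286 at PD15 and 3002 to 3553 at PD16, and limma called Amh higher and Cyp19a1 and Kitl lower at PD16 than at PD14. The 12 oocyte markers summed to 1470 to 1805 at PD14, 1875 to 1972 at PD15 and 1342 to 1454 at PD16, with no overlap between days. Without Padi6, the most abundant, PD14 (1127 to 1385) overlapped with PD16 (1071 to 1143), and PD15 (1465 to 1564) lay above both. All 12 were lower at PD16 than at PD15, with Zp2 and Nlrp5 called, whereas Nlrp5 was called higher at PD15 and Bmp15 at PD16, each against PD14. The 9 epithelial and oviduct markers summed to 63.6 to 71.7 at PD14, 57.1 to 64.1 at PD15 and 48.4 to 54.1 at PD16, and limma called Krt8, Krt18 and Krt19 lower at PD16 than at PD14. Without Krt8, the epithelial sum at PD16 (32.2 to 38.6) overlapped with PD15 (37.7 to 43.0) and lay below PD14 (39.8 to 47.7). Red cell markers were lower at PD15 (46.4 to 63.2) than at PD14 (105 to 147) without overlap, and theca and interstitial markers, mostly Hsd3b1, overlapped, at 1282 to 1916 and 1766 to 2410. Without Hsd3b1, the theca sum was 306 to 319 at PD14, 212 to 271 at PD15 and 187 to 297 at PD16, so PD14 lay above both later days. The 9 stromal markers summed to 632 to 719 at PD14, 547 to 628 at PD15 and 638 to 651 at PD16. PD15 thus lay below both other days. Without Col3a1, the stromal sum at PD15 (404 to 475) overlapped with PD14 (459 to 527) and with PD16 (473 to 482). The part of these markers in the values of the thrombospondins and receptors was not tested.

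**Figure D5:**
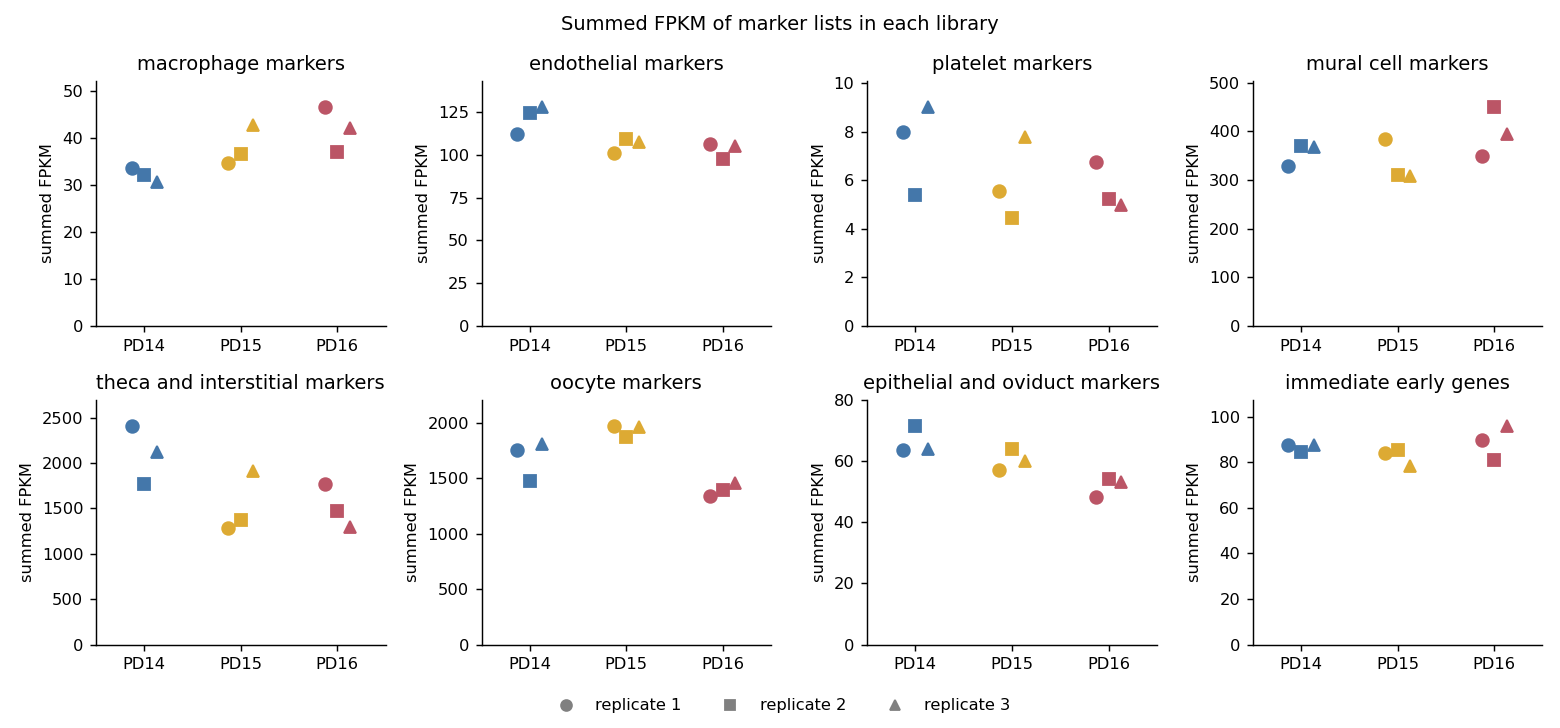
Summed FPKM of 8 marker lists (mural cells including smooth muscle) in each library (circle, square and triangle for replicates 1, 2 and 3), with the day on the horizontal axis. The macrophage sum was above 34 in every PD15 and PD16 library and below it in every PD14 library, the endothelial sum was highest at PD14, the epithelial sum was lowest at PD16, and the oocyte sum separated all 3 days, while the platelet, mural, theca and immediate early sums overlapped between days. Each sum includes its list's most abundant gene, and the separation of the macrophage, oocyte, epithelial, theca and platelet sums differed without it.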

How the data were processed

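The authors deposited FPKM for each of 9 libraries of ovarian RNA (NEBNext Ultra kit, Illumina HiSeq), with 52025 genes per table. The submitters' processing notes name HISAT2 2.0.5 and mm10. The counter, the annotation release and the use of strand are not given in the sources used here. Values were used as deposited on a log2(FPKM + 1) scale, which understates changes of low genes. The 15495 genes whose mean FPKM exceeded 1 on any of the days entered limma 3.58.1 (R 4.3.3) with an intensity trend and all 9 libraries in 1 model without a replicate block, two-sided with Benjamini-Hochberg adjustment over these genes. The fit was tested on simulated data. The depth was recovered from FPKM steps and GENCODE M21 exon lengths, and 89.2% to 89.9% of low values per library came out whole within 0.02 fragments. For Thbs2 and Cd47, lengths of 5922 and 5277 bases gave whole fragments and were used in place of the 7003 and 6276 bases of GENCODE M21. The SD of a day rests on 3 libraries, and the standard errors of differences between days rest on the 1 model over all 9 libraries. Motifs came from RefSeq promoters of GRCm38.p6, and sums, ratios and figures from Python 3.11.15, pandas 2.3.3, NumPy 2.4.6, SciPy 1.17.1 and Matplotlib 3.10.9.

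The members and lists were chosen with earlier results of these data known. The genes named were the members, the listed genes called in any comparison (at most 5 per list), for each member the 3 genes with the highest and the 1 with the lowest Pearson r, and up to 2 of the most abundant markers per list. Alternatives were another pseudocount, no filter or a mean FPKM above 5, median-ratio scaling, no intensity trend, a replicate block, each library left out, and thrombospondin shares without Thbs4.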

Additional observations from a re-analysis of the deposited data

How the results depend on the processing

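Another pseudocount and median-ratio scaling moved no difference of a member between days by more than the gene's residual SD in the main fit. The filter, the intensity trend and the replicate block leave the differences themselves unchanged. Leaving out 1 of the 3 libraries of a day cannot shift a difference by more than this SD, so those fits could not show such a move. The sign held throughout, with these exceptions when single libraries were left out: Cd36 for PD15 against PD14 (-0.06 to 0.07), Cd47 for PD16 against PD14 (-0.06 to 0.03), and Thbs2 (-0.04 to 0.17) and Thbs3 (-0.11 to 0.08) for PD16 against PD15. Counts of calls depended on the fit, and the cause was not tested. Without a filter, more genes entered the adjustment, and 29, 172 and 24 genes were called for PD15 against PD14, PD16 against PD14 and PD16 against PD15, with 0 members for PD16 against either day and 1, 1 and 0 listed genes. The listed gene was Rspo1 for PD15 and for PD16 against PD14, and the other listed genes named lost their calls. The filter at a mean FPKM above 5 called 63 genes for PD15 against PD14, with 1 listed gene there and 0 for PD16 against PD15, and left Thbs3, Comp and Adamts5 untested. Without an intensity trend, 1 listed gene was called for PD15 against PD14, and 0 members and 0 listed genes for PD16 against PD15. The replicate numbers do not pair the libraries: deviations of libraries with the same number correlated at -0.21 to 0.16, and 0 of 9 libraries correlated best with their own number on both other days. With a replicate block, 24, 227 and 56 genes were called, with 1 and 0 members for PD16 against PD14 and PD15, and 1, 3 and 0 listed genes. The member was Cd36. The listed genes were Rspo1 for PD15 against PD14, and Rspo1, Pparg and Adamtsl2 for PD16 against PD14. Leaving out each library gave 3 to 92, 92 to 660 and 14 to 125 genes, 0, 0 to 2 and 0 to 1 members, and 0 to 1, 1 to 8 and 0 to 2 listed genes. Without Thbs4 in the sum, Thbs1 held 88.1%, 91.2% and 91.9% of it at PD14, PD15 and PD16, Thbs2 10.8% at PD14 and 7.40% at PD16, and Thbs3 1.10% and 0.714%. Of the listed genes named, Rspo1 for PD16 against PD14 kept its call in all 15 alternatives.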
